A study of Mus musculus with 18 samples.

Results

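The genes described here encode the coat of caveolae: the caveolins Cav1, Cav2 and Cav3, the cavins Cavin1, Cavin2, Cavin3 and Cavin4, and Ehd2, 8 of the 55450 genes in the count table. They were taken from the table by symbol, as the known families, and the set was picked because Cav2 is low in knockout myotubes. The values of that contrast, knockout against control myotubes, and the knockout minus control difference in differentiation response are therefore given as descriptions with no test, and so is Cav2 wherever a comparison uses either of those myotube groups. All 8 genes passed the filter on low counts, 17912 genes in all.

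The cells were C2C12, myoblasts of the mouse in long-term culture, which stop dividing and fuse in low-serum medium. The study asked how the dose of the Dlk1-Dio3 noncoding RNA cluster bears on muscle cell state and differentiation, using lines made with Cas9 and pairs of guide RNAs against the regulatory region just upstream of Meg3. Each of 3 lines was sequenced as polyA RNA, as myoblasts (MB) in growth medium with 10% fetal bovine serum and as myotubes (MT) on day 3 in differentiation medium, with 3 libraries (A, B and C) per group and 18 in all. The control (px) was a sorted population of cells transfected with the pX458 vector alone, the overexpressor was clone 2-4 and the knockout was clone 2-7. All lines, controls included, went through transfection and EGFP sorting. Each genotype is 1 clone grown from a single cell while the control is a population, so genotype and clone cannot be told apart. Nothing in the labels says that the 3 libraries of a group came from separate cultures, so p-values measure the spread between those libraries, which may be technical.

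Caveolae are small flask-shaped pits of the plasma membrane that flatten under tension and hold signalling proteins and cholesterol. Caveolin-1 or, in striated muscle, caveolin-3 forms the membrane scaffold, caveolin-2 joins caveolin-1 in mixed oligomers, and cavin-1 builds the outer coat with the other cavins, of which cavin-4 belongs to muscle. Ehd2 is an ATPase that sits at the neck and holds caveolae at the surface. In muscle, loss of caveolin-3 or cavin-1 causes muscle disease with rippling and wasting.

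Total counts ran from 41544358 to 79140702 per library, so the floor of 3 counts lay between 0.0375 and 0.0693 CPM (the usual depth-scaled count of a gene, here after edgeR's TMM scaling). Meg3 was at 0 counts in all control and knockout libraries and between 5222 and 7763 counts in the overexpressor libraries, so Meg3 separates the overexpressor from the others and says nothing of the knockout label. The summed level of 6 myotube markers was 243 to 372 CPM in control myoblasts, 423 to 699 CPM in overexpressor myoblasts and 9130 to 11659 CPM in knockout myoblasts, against 13607 to 14059, 20785 to 22899 and 29463 to 35123 CPM in control, overexpressor and knockout myotubes. The knockout libraries labelled myoblasts thus carried myotube markers. Markers of 3 other cell types were near 0: 6 endothelial markers summed to at most 0.669 CPM, 6 adipocyte markers to at most 0.455 CPM and 4 macrophage markers to at most 2.22 CPM in any library. The 5 smooth muscle markers were not near 0 in sum, at 4852 to 5082 CPM in control, 3329.8 to 4034 in overexpressor and 9709 to 10375 in knockout myoblasts, and at 4027 to 4401, 9643 to 11649.8 and 13957 to 17425 CPM in the myotubes in the same order. Most of that was Acta2 and Des, the latter also a myoblast marker here. Smtn had group means of 159 to 251 CPM, Cnn1 of 0.248 to 29.3 CPM, and Myh11, the defining gene, at most 14 counts per library. In overexpressor against control myotubes 4 of these 5 markers were higher, all but Myh11, where 26.2% of all genes were called higher. The part of these markers in the results below was not tested. Overexpressor myotube library C stood apart from A and B (chi-square over degrees of freedom 118 and 112, against 22.8 between A and B). Overexpressor myoblast library B did so to a lesser degree (37.3 and 33 against A and C, with 8.46 between those), and calls of Cavin2 and Cavin3 below change without it. In bulk RNA, fewer cells of a type and less RNA per cell cannot be told apart.

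Cav1 and Cav2 are neighbours on mouse chromosome 6 (build GRCm38), both on the plus strand, Cav2 (ENSMUSG00000000058) at chr6:17281185-17289115 and Cav1 (ENSMUSG00000007655) at chr6:17306335-17341452. Cav3 (ENSMUSG00000062694) lies far along the same chromosome at chr6:112459505-112472872, and Cavin4 (ENSMUSG00000028348) at chr4:48663514-48673502, both on the plus strand. The other members, all on the minus strand except Cavin2, are Cavin1 (ENSMUSG00000004044) at chr11:100956733-100970887, Cavin2 (ENSMUSG00000045954) at chr1:51289126-51302960, Cavin3 (ENSMUSG00000037060) at chr7:105480083-105482300 and Ehd2 (ENSMUSG00000074364) at chr7:15946958-15967567. The counting's strand setting is not given in the sources used here, and Cavin3 shares 374 exon bases with Gm45667 on the opposite strand, so its counts are uncertain to that extent.

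The promoters shown are those of Cav3 and Cavin4, the pair that rose on differentiation in control and in both clones, and of the neighbours Cav1 and Cav2. The neighbours ended low in the myotubes of both clones, though Cav1 rose in control differentiation. Each line holds the 250 bases before the annotated start (RefSeq, GRCm38.p6, plus strand), at chr6:112459255-112459504, chr4:48663264-48663513, chr6:17306085-17306334 and chr6:17280935-17281184 in turn. Capitals mark CANNTG, the E-box letters that MyoD-family factors can bind, and GGGCGG, the GC box of Sp1-type factors, on either strand (CCGCCC on the other).
Cav3: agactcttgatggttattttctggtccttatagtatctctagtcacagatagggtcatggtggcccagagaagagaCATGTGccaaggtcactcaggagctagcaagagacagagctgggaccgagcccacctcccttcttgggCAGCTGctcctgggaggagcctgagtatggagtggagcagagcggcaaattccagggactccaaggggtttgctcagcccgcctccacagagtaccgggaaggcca
Cavin4: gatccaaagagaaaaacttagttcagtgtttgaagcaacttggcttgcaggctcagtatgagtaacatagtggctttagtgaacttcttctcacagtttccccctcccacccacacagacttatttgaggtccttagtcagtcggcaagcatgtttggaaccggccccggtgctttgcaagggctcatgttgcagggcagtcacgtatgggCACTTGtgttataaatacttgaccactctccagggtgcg
Cav1: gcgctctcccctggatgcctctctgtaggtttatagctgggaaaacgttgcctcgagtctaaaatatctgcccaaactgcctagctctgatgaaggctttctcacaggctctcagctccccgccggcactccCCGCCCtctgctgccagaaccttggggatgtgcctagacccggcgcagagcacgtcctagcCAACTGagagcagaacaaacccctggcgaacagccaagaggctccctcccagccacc
Cav2: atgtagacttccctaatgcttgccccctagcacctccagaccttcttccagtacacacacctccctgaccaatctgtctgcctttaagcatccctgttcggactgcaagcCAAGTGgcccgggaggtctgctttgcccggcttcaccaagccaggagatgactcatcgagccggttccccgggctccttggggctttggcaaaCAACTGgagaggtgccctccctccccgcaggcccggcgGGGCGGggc
The Cav3 window held CATGTG 174 bases and CAGCTG 106 bases before the start, the latter being the E-box form that muscle factors favour. CAGCTG was also in the window of Ehd2, which did not rise in any line. Cavin4 had CACTTG at 39 bases, Cav1 had CAACTG at 57 and a GC box at 118 bases, and Cav2 had CAAGTG at 140, CAACTG at 47 and a GC box at 9 bases. Another RefSeq window of Cav1, before a start not shown here, held CANNTG but no GC box. Of 32851 promoter windows of this length, 66.2% held CANNTG, 13.0% held CAGCTG (a case of CANNTG) and 32.7% held GGGCGG. No window of a matched member held a CArG box or a MEF2 motif, which 1.5% and 2.9% of the windows held. RefSeq windows were found for 7 of the 8 members, all but Cavin3, and a match is a description of letters only.

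Cav1, the scaffold caveolin of most cells, was lower in both clones as myoblasts and reached its lowest levels in their myotubes. Control myoblast libraries A, B and C held 273, 271 and 272 CPM, overexpressor myoblasts 89.2, 97.7 and 82, and knockout myoblasts 227, 197 and 219. Control myotubes held 520, 515 and 483 CPM, overexpressor myotubes 56.9, 68.5 and 66.5, and knockout myotubes 35.1, 35.0 and 29.1. No value of a clone reached the lowest control value of its stage, and the 6 groups did not overlap with each other. In myoblasts the overexpressor was 3.04-fold lower than control (log2 difference -1.60, SE 0.09, adjusted p 5.22e-11 by edgeR's quasi-likelihood test over all genes, n = 3 per group, as in every adjusted p below). The knockout was 1.27-fold lower than control (log2 -0.34, SE 0.09, adjusted p 0.00224) and 2.39-fold above the overexpressor (adjusted p 7.53e-10).

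During differentiation Cav1 rose in the control line and fell in both clones. The rise in control was 1.86-fold (log2 0.89, SE 0.09, adjusted p 4.15e-08). In the overexpressor it fell 1.40-fold (log2 -0.49, SE 0.09, adjusted p 7.47e-05), and in the knockout 6.48-fold (log2 -2.70, SE 0.09, adjusted p 3.11e-13). The difference between the overexpressor's and control's responses was log2 -1.38 (SE 0.12, adjusted p 4.94e-08). Overexpressor myotubes held 7.91-fold less Cav1 than control myotubes (log2 -2.98, SE 0.09, adjusted p 1.29e-14) and 1.93-fold more than knockout myotubes (log2 0.95, adjusted p 6.97e-08). The knockout myotube mean of 33.0 CPM (SD 3.40) stood beside a control mean of 506 (SD 20.3), a log2 difference of -3.93 that belongs to the contrast the set was picked on.

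Cav2, the partner that needs caveolin-1 to reach the surface, was a low gene throughout. Its libraries held 22.6, 17.0 and 19.5 CPM in control myoblasts, 10.7, 15.4 and 11.7 in overexpressor myoblasts and 11.9, 11.9 and 11 in knockout myoblasts. Myotube libraries held 19.1, 18 and 18.2 CPM in control, 3.95, 5.50 and 9.01 in the overexpressor and 1.71, 1.12 and 1.23 in the knockout, where 59 to 100 counts lay behind each value. Control libraries of the 2 stages overlapped, and each clone's myotubes lay below all its myoblasts. In knockout myoblasts Cav2 was 1.70-fold lower than in control (log2 -0.76, SE 0.22, adjusted p 0.0082). Overexpressor myoblasts were 1.56-fold lower (log2 -0.64, SE 0.22, adjusted p 0.0294). That call was lost without control library A or C, without overexpressor library A or C, and with no filter on low counts (adjusted p 0.0603 to 0.114 in these, and 0.000814 to 0.114 over all 24 alternatives). Between the clones' myoblasts the difference was not called (log2 0.12, 95% interval -0.36 to 0.61, adjusted p 0.675). In the overexpressor Cav2 fell 2.05-fold during differentiation (log2 -1.03, SE 0.23, adjusted p 0.000777).

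The values that picked the set are the Cav2 means of 18.4 CPM (SD 0.566) in control and 1.35 CPM (SD 0.311) in knockout myotubes, 13.5-fold apart (log2 -3.76). Given likewise without a test, the log2 change of Cav2 on differentiation was -0.10 in control and -3.09 in the knockout, and overexpressor myotubes lay at -1.58 against control and 2.18 against knockout myotubes.

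Cav3, the caveolin of differentiated muscle, showed the widest range. Control myoblasts held 8 to 10 counts per library (0.169, 0.192 and 0.178 CPM) and overexpressor myoblasts held 0 counts in all 3 libraries. Knockout myoblasts held 24, 29.3 and 23.0 CPM, 139.8-fold above control myoblasts (log2 7.13, SE 0.21, adjusted p 1.89e-13). Myotube libraries A, B and C held 129, 131 and 119.8 CPM in control, 106, 74.5 and 95.5 in the overexpressor and 145, 161 and 184 in the knockout. Knockout myoblasts thus lay between the other myoblasts and all myotubes, with no overlap. Beside this stands the summed myotube marker level of those libraries, 9130 to 11659 CPM against 243 to 372 CPM in control myoblasts, whose part in the Cav3 difference was not tested.

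With 0 counts in overexpressor myoblasts only bounds can be given, computed against 3 counts in the shallowest library. Against control, Cav3 there was at least 2.59-fold lower (adjusted p 0.000206). That compares 0 counts with 8 to 10 per control library. Cav3 passed the filter on low counts only through the groups where it is high. With only these groups fitted it was filtered out, so nothing is read from that call. Against knockout myoblasts it was at least 367-fold lower (adjusted p 9.29e-14). On differentiation it rose at least 1329-fold in the overexpressor (adjusted p 4.08e-15), 697-fold in control (log2 9.44, SE 0.21, adjusted p 3.4e-15) and 6.42-fold in the knockout (log2 2.68, SE 0.13, adjusted p 7.15e-11), which began higher. Overexpressor myotubes ended 1.38-fold below control (log2 -0.46, SE 0.12, adjusted p 0.00361) and 1.77-fold below knockout myotubes (log2 -0.83, SE 0.12, adjusted p 2.83e-05).

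**Figure D1:**
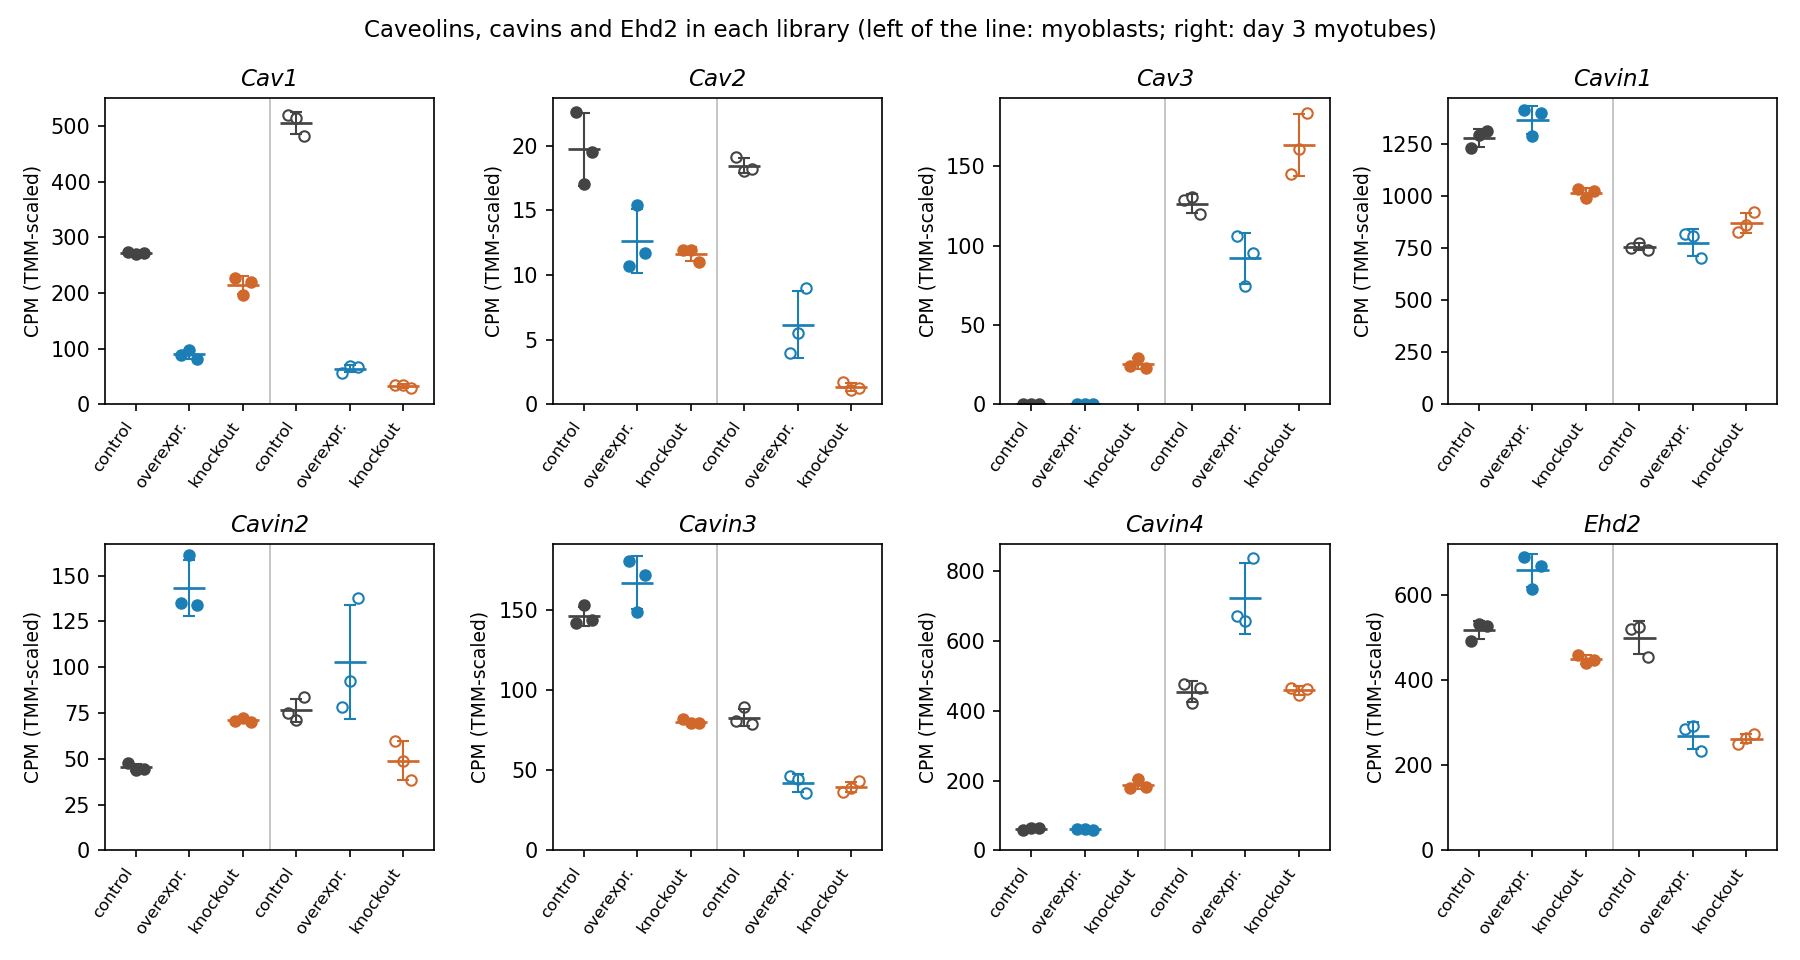
Level of each gene in every library, in CPM after TMM scaling on a linear axis from 0, with myoblasts left and day 3 myotubes right of the vertical line; points are libraries, horizontal lines are group means and bars are SD (n = 3). Cav1 stands at 483 to 520 CPM in control myotubes and at 29.1 to 68.5 CPM in the myotubes of the clones, while Cav3 is already at 23.0 to 29.3 CPM in knockout myoblasts.

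Levels per length give the shares of Cav1 and Cav3 in the caveolin pool. Dividing CPM by the kilobases of exon in each gene, Cav3 made up 0.183% of the summed caveolin RNA in control myoblasts (SD 0.0146, n = 3) and 25.1% in knockout myoblasts (SD 3.75), and overexpressor myoblasts had 0%. In myotubes its share was 41.8% in control (SD 0.346), 79.2% in the overexpressor (SD 4.51) and 93.3% in the knockout (range 92.1% to 94.7%). The ranges of these shares did not overlap between any of the 6 groups, and no test was made on them. Using each gene's longest transcript, the mean share was 0.146% in control myoblasts, 21.1% in knockout myoblasts, 36.5% in control myotubes and 91.7% in knockout myotubes. Control myotubes thus kept more Cav1 (56.1%, SD 0.231) than Cav3, whereas Cav1 was 18.9% (SD 4.11) of the pool in overexpressor and 6.44% (SD 1.26) in knockout myotubes. A share rises also where Cav1 is lower. Cav3 itself was at 109.5, 79.7 and 141 CPM per kb in control, overexpressor and knockout myotubes. Cav1 was at 147, 18.6 and 9.60 in the same order.

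The summed caveolin level also differed. It was 85.1 CPM per kb (SD 1.16) in control myoblasts, 29.8 (SD 2.91) in overexpressor and 87.7 (SD 2.29) in knockout myoblasts, where Cav3 stood beside a lower Cav1. Control myotubes had 262 CPM per kb (SD 11.3), overexpressor myotubes 100.2 (SD 12.6) and knockout myotubes 151 (SD 16.1). Every control myotube library was above every myotube library of the clones. Cav1 exceeded Cav2 per length by 13.6-fold (SD 1.90) in control and 6.98-fold (SD 0.969) in overexpressor and 18-fold (SD 1.67) in knockout myoblasts. In myotubes the ratio was 26.6 (SD 1.01) in control, 11 (range 7.14 to 13.9) in the overexpressor and 24.3 (SD 5.30) in the knockout.

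**Figure D2:**
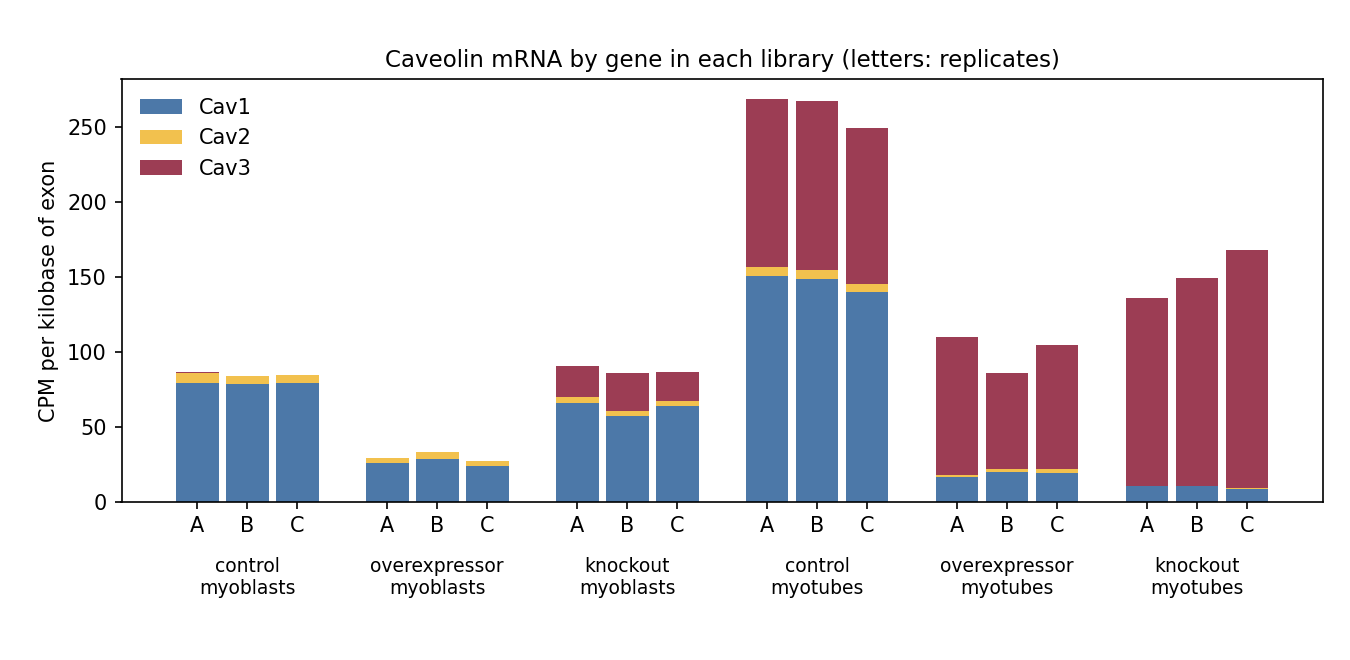
Caveolin RNA of each library in CPM per kilobase of exon, stacked by gene (blue Cav1, yellow Cav2, red Cav3) on a linear axis from 0, with 1 bar for each of libraries A, B and C in the 6 groups. The control myotube bars are the highest at 249 to 269 CPM per kb, and Cav3 takes 41.6% to 42.2% of them against 74.9% to 83.9% in overexpressor and 92.1% to 94.7% in knockout myotubes.

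Among the cavins, Cavin1, the coat protein that caveolae cannot form without, was the most abundant per length in all myoblasts and fell on differentiation. It held 1231, 1292 and 1310.5 CPM in control myoblasts, 1413, 1287 and 1396 in overexpressor and 1032, 989 and 1024 in knockout myoblasts. Myotubes held 751, 775 and 742 CPM in control, 816, 809.6 and 700.3 in the overexpressor and 826, 862 and 924 in the knockout. Control and overexpressor overlapped at both stages, and all myotube libraries lay below all myoblast libraries. In myoblasts the knockout was 1.26-fold lower than control (log2 -0.33, SE 0.07, adjusted p 0.000312), beside the raised myotube markers given above. The overexpressor did not pass (log2 0.10, 95% interval -0.05 to 0.24, adjusted p 0.273). Cavin1 fell on differentiation by 0.76 on the log2 scale in control (adjusted p 1.12e-08) and by 0.82 in the overexpressor (adjusted p 3.71e-09). The fall in the knockout was 0.22 (SE 0.07, adjusted p 0.00673), a call lost with DESeq2's size factors (log2 -0.094, adjusted p 0.316) and its Wald test and with the groups compared fitted alone (adjusted p 2.42e-05 to 0.336 over the alternatives). Overexpressor and control myotubes did not differ past the threshold (log2 0.04, 95% interval -0.11 to 0.18, adjusted p 0.659). Without overexpressor myotube library C the difference was called (log2 0.21, adjusted p 0.0132), and so it was with library totals (log2 0.18, adjusted p 0.0157).

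Cavin2, a cavin of blood vessel lining and fat that binds phosphatidylserine, was higher in the myoblasts of both clones. Control myoblasts held 47.7, 43.9 and 44.5 CPM, overexpressor myoblasts 135, 161 and 134, and knockout myoblasts 70.7, 72.4 and 70.1. The overexpressor was 3.16-fold above control (log2 1.66, SE 0.18, adjusted p 1.75e-06), the knockout 1.57-fold above it (log2 0.65, SE 0.18, adjusted p 0.00571), and no groups overlapped. The endothelial markers summed to at most 0.437 CPM in these myoblast libraries.

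On differentiation Cavin2 rose in control and fell in the clones. Myotube libraries held 74.9, 71.1 and 83.5 CPM in control, 78.2, 92.3 and 138 in the overexpressor, where library C was the high one, and 59.6, 48.7 and 38.3 in the knockout. The control rise was 1.69-fold (log2 0.75, SE 0.18, adjusted p 0.0015). The fall in the overexpressor was 1.40-fold with overlapping groups (log2 -0.48, SE 0.17, adjusted p 0.0247). It was not called without overexpressor myoblast library B, without myotube library A or B, with no filter or with the 2 groups fitted alone (adjusted p 0.0913 to 0.119 in these, 0.000101 to 0.119 over the alternatives). The 1.45-fold fall in the knockout (log2 -0.54, SE 0.18, adjusted p 0.0138) was lost without knockout myotube library C (log2 -0.39, adjusted p 0.0757, with 0.000577 to 0.0757 over the alternatives). The overexpressor's response lay below control's (log2 -1.24, SE 0.25, adjusted p 0.00085). Overexpressor myotubes stood 2.10-fold above knockout myotubes (log2 1.07, SE 0.18, adjusted p 0.000101). Against control myotubes the difference was at the edge of the threshold (log2 0.43, SE 0.17, adjusted p 0.0484), the groups overlapped, and 17 of 24 alternatives ended the call (adjusted p 0.00202 to 0.137), among them leaving out overexpressor myotube library C (log2 0.26, adjusted p 0.0895).

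Cavin3, which links caveolae to protein kinase C signalling, was lower in knockout myoblasts and lower still in the myotubes of both clones. Its libraries held 142, 153 and 144 CPM in control myoblasts, 181, 149 and 172 in overexpressor and 81.8, 79.6 and 79.3 in knockout myoblasts. In myotubes they held 80.6, 89.3 and 79 CPM in control, 46.3, 44.4 and 35.6 in the overexpressor and 36.8, 39.1 and 43.1 in the knockout. Knockout myoblasts lay at the level of control myotubes, and the myotubes of the clones overlapped with each other below it. The knockout myoblasts were 1.82-fold below control (log2 -0.87, SE 0.09, adjusted p 2.7e-07), beside the raised myotube markers given above. The overexpressor myoblasts did not pass (log2 0.20, 95% interval 0.00 to 0.39, adjusted p 0.1). Leaving out overexpressor myoblast library B brought that difference past the threshold (log2 0.27, adjusted p 0.0286, with 0.0286 to 0.336 over the alternatives). Cavin3 fell in every line on differentiation, by 0.82 on the log2 scale in control (adjusted p 3.5e-07), 1.02 in the knockout (adjusted p 3.45e-08) and 1.99 in the overexpressor (adjusted p 2.29e-12), where the response lay below control's (log2 -1.17, SE 0.13, adjusted p 9.04e-07). Overexpressor myotubes ended 1.97-fold under control myotubes (log2 -0.98, SE 0.09, adjusted p 4.84e-08). Against knockout myotubes they did not differ past the threshold (log2 0.09, 95% interval -0.12 to 0.29, adjusted p 0.438), though they did without overexpressor myotube library C (log2 0.22, adjusted p 0.0427, with 0.0427 to 0.908 over the alternatives).

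Cavin4, the muscle cavin that sits at forming T-tubules, followed Cav3 in its direction on differentiation. Myoblast libraries held 57.1, 62.8 and 63.6 CPM in control, 61.7, 60.9 and 57.9 in the overexpressor and 179, 203 and 181 in the knockout. Myotube libraries held 477, 422 and 465 CPM in control, 670.4, 656 and 837 in the overexpressor and 466, 444 and 463 in the knockout. Control and overexpressor myoblasts overlapped, knockout myoblasts lay above both, and in myotubes it was the overexpressor that lay above the rest. The knockout myoblast level was 3.07-fold above control (log2 1.62, SE 0.09, adjusted p 2.42e-11), beside the raised myotube markers given above. For overexpressor myoblasts the difference from control was -0.02 on the log2 scale (95% interval -0.21 to 0.16, adjusted p 0.866). Cavin4 rose 7.44-fold in control (log2 2.90, SE 0.09, adjusted p 7.64e-15), 12-fold in the overexpressor (log2 3.58, SE 0.09, adjusted p 1.01e-15) and 2.44-fold in the knockout (log2 1.29, SE 0.08, adjusted p 4.46e-10). The overexpressor's rise was larger than control's by 0.69 (SE 0.12, adjusted p 0.000129), and its myotubes stood 1.59-fold above control (log2 0.67, SE 0.08, adjusted p 1.7e-06) and 1.58-fold above knockout myotubes (log2 0.66, adjusted p 3.29e-06). The summed myotube markers were 13607 to 14059 CPM in control, 20785 to 22899 in overexpressor and 29463 to 35123 in knockout myotubes. Their part in the Cavin4 differences was not tested.

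Per length, Cavin4 was 6.09% of the cavin sum in control myoblasts (SD 0.174) and 20.5% in knockout myoblasts (SD 1.42). In myotubes it was 43.6% in control (SD 2.14), 55.9% in the overexpressor (SD 4.34) and 44.1% in the knockout (SD 1.23), while Cavin1 went from 72.8% (SD 0.513) to 41.6% (SD 1.5) of the sum in control. The cavin sum itself ranged from 446 CPM per kb in knockout myoblasts (SD 1.53) to 626 in overexpressor myotubes (SD 37.3), a narrower span than that of the caveolins, 29.8 to 262 CPM per kb.

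Ehd2, the neck ATPase, was near even in the control line and lower in the myotubes of both clones. It held 493, 533 and 529 CPM in control myoblasts, 691, 616 and 669 in overexpressor and 460.3, 441 and 447 in knockout myoblasts. In myotubes it held 522, 525 and 455 CPM in control, 285, 293 and 233 in the overexpressor and 251, 265 and 273 in the knockout. Every myotube library of the clones lay below every other library. In overexpressor myoblasts Ehd2 was 1.27-fold higher than control (log2 0.34, SE 0.08, adjusted p 0.00191). For knockout myoblasts the 1.15-fold lower level (log2 -0.21, SE 0.08, adjusted p 0.0375) lost its call without control library B or C, without any of the 3 knockout libraries, and under the Wald test of DESeq2 (adjusted p 0.0503 to 0.108 in these, 0.000108 to 0.108 over the alternatives). Control cells did not change past the threshold on differentiation (log2 -0.05, 95% interval -0.23 to 0.12, adjusted p 0.588), except with library totals (log2 -0.30, adjusted p 0.00275), a scaling that moves the median of all genes from 0.07 to -0.17. Ehd2 fell 2.44-fold in the overexpressor (log2 -1.28, SE 0.08, adjusted p 1.19e-10) and 1.71-fold in the knockout (log2 -0.77, SE 0.08, adjusted p 1.81e-07). The overexpressor's response was below control's too (log2 -1.23, SE 0.11, adjusted p 9.1e-08), and its myotubes were 1.85-fold below control (log2 -0.89, SE 0.08, adjusted p 2.64e-08). The myotubes of the 2 clones did not differ past the threshold (log2 0.04, 95% interval -0.14 to 0.21, adjusted p 0.692).

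Read against all genes, the counts of members called were as follows. In overexpressor against control myoblasts, 5 of 8 members were called, where 40.4% of all genes tested were called (20.7% higher and 19.7% lower). Cavin2 and Ehd2 were higher, and Cav1, Cav2 and Cav3 lower. The Cav3 call is of 0 against 8 to 10 counts per library, and nothing is read from it. In knockout against control myoblasts 8 of 8 were called, Cav3, Cavin2 and Cavin4 higher and the other 5 lower, against 53.0% of all genes (26.4% higher and 26.6% lower). The members' median log2 difference was 0.04 and -0.27 in these comparisons, beside 0.02 over all genes in each. They share the control libraries. Between the clones' myoblasts 7 of 8 were called (background 52.6%, with 25.7% higher and 26.9% lower), with Cavin1, Cavin2, Cavin3 and Ehd2 higher and Cav1, Cav3 and Cavin4 lower in the overexpressor.

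Differentiation changed most of the members, as it did most genes. In the overexpressor 8 of 8 were called, Cav3 and Cavin4 higher and 6 lower (background 62.8%, with 29.8% higher and 33.0% lower), with a median of -0.66 against -0.02 over all genes. In control 6 of the 7 tested were called, Cav1, Cav3, Cavin2 and Cavin4 higher and Cavin1 and Cavin3 lower (background 62.8%, with 33.9% higher and 28.8% lower). In the knockout 7 of 7 were called, Cav3 and Cavin4 higher and 5 lower (background 65.4%, with 29.8% higher and 35.6% lower). Cav1 and Cavin2 are the members that rose in control and fell in both clones.

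Of the 7 tested in overexpressor against control myotubes, 6 were called, Cavin2 and Cavin4 higher and Cav1, Cav3, Cavin3 and Ehd2 lower (background 57.1%, with 26.2% higher and 30.9% lower). Against knockout myotubes 5 of 7 were called (background 59.7%, with 30.6% higher and 29.1% lower), with Cav1, Cavin2 and Cavin4 higher and Cav3 and Cavin1 lower in the overexpressor. The Cavin1 call of log2 -0.17 (adjusted p 0.0355) was lost in 9 of 24 alternatives, among them leaving out knockout myotube library B or C or overexpressor myotube library C (adjusted p 0.0212 to 0.399). The overexpressor minus control difference in response was called for 6 of 7 members, Cav3 and Cavin4 higher and Cav1, Cavin2, Cavin3 and Ehd2 lower (background 39.0%, with 16.6% higher and 22.3% lower). For Cav3 that difference rests on 0 counts in overexpressor and 8 to 10 in control myoblasts. The set was picked on Cav2 in knockout against control myotubes, so no count of members there can test it. In that contrast 7 of 8 members lay past the same threshold (background 68.0%), from which nothing is read. Its log2 differences were, beside those of Cav1 and Cav2, 0.37 for Cav3, 0.20 for Cavin1, -0.65 for Cavin2, -1.06 for Cavin3, 0.01 for Cavin4 and -0.93 for Ehd2. The knockout minus control differences in response, also without a test, ran from -6.76 for Cav3 to 0.54 for Cavin1. Between them lay -3.59 for Cav1 and -1.61 for Cavin4, and Cav3 began higher in the knockout. Here 7 of 8 members lay past the threshold (background 50.1%). These differences hold the same myotube groups, so nothing is read from that count either.

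**Figure D3:**
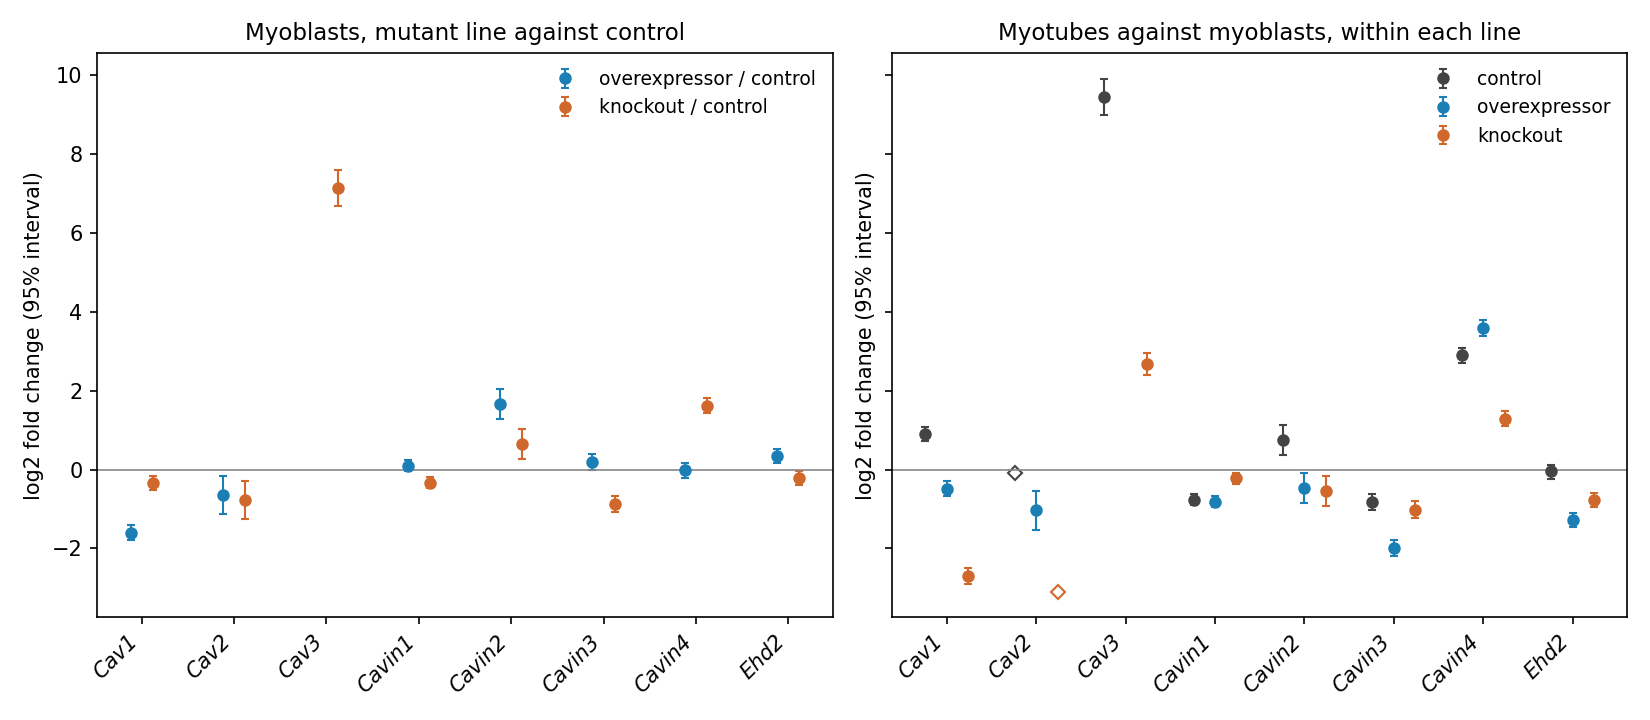
Log2 difference of each gene (vertical axis, linear) between each clone and control myoblasts on the left, and between myotubes and myoblasts of each line on the right; points are estimates from 3 libraries per group and bars are 95% intervals. Open diamonds are Cav2 values given without a test, and Cav3 of the overexpressor is not drawn, since its myoblasts held 0 counts; Cav1 lies at 0.89 in control but at -0.49 and -2.70 in the overexpressor and knockout.

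Ordered by mean level per length, Cavin1 stood first in all myoblast groups (356, 381 and 283 CPM per kb in control, overexpressor and knockout) and in knockout myotubes (243). Cavin4 and Cavin1 overlapped at the top in control myotubes (221 and 211 CPM per kb), and Cavin4 led in overexpressor myotubes (351). Cav1 was the third in control myotubes at 147 CPM per kb and the seventh in the myotubes of the clones, at 18.6 and 9.60. Cav2 was the lowest in every group but control and overexpressor myoblasts, where Cav3 was. Neighbours in this order that overlapped were Cavin4 and Cav1 in overexpressor myoblasts, Cavin4 with Ehd2 and Cavin2 with Cav3 in knockout myoblasts, and Cavin2 with Cavin3 in overexpressor myotubes. With longest transcripts Cav1 moved above Cavin3 in control myoblasts and above Cavin4 in overexpressor myoblasts.

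Cav1 starts 25.1 kb after Cav2, and within 500 kb of either start the annotation lists 24 genes, of which 9 passed the filter, Cav1 and Cav2 included. Tes, a focal adhesion protein gene 216 kb before Cav2, fell in every line on differentiation (log2 -1.78, -1.92 and -1.80 in control, overexpressor and knockout, adjusted p 4.01e-14, 2.31e-14 and 5.53e-13). Met, the hepatocyte growth factor receptor gene 182.6 kb after it, also fell in each (log2 -1.86, -1.61 and -1.16, adjusted p 6.98e-10, 4.25e-09 and 4.83e-07). Both fell in control cells, where Cav1 rose. In myoblasts Tes and Met were lower in the knockout (log2 -1.27 and -1.30, adjusted p 8.51e-12 and 1.24e-07) and did not pass in the overexpressor (log2 -0.11 and -0.24, adjusted p 0.164 and 0.142), whereas Cav1 was lower in both. The knockout myoblast libraries carried raised myotube markers, whose part in these differences was not tested. Capza2 and St7, 355 and 411.7 kb after Cav2, passed in neither clone's myoblasts (adjusted p 0.133 to 0.9). In overexpressor against control myotubes Tes and St7 were lower (log2 -0.25 and -0.48, adjusted p 0.00215 and 4.72e-05), and Met and Capza2 did not pass (log2 0.01 and 0.22, adjusted p 0.951 and 0.309). In knockout against control myotubes, given without a test, the log2 differences were -1.29 for Tes, -0.60 for Met, -0.62 for Capza2 and -0.32 for St7, beside -3.93 for Cav1.

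**Figure D4:**
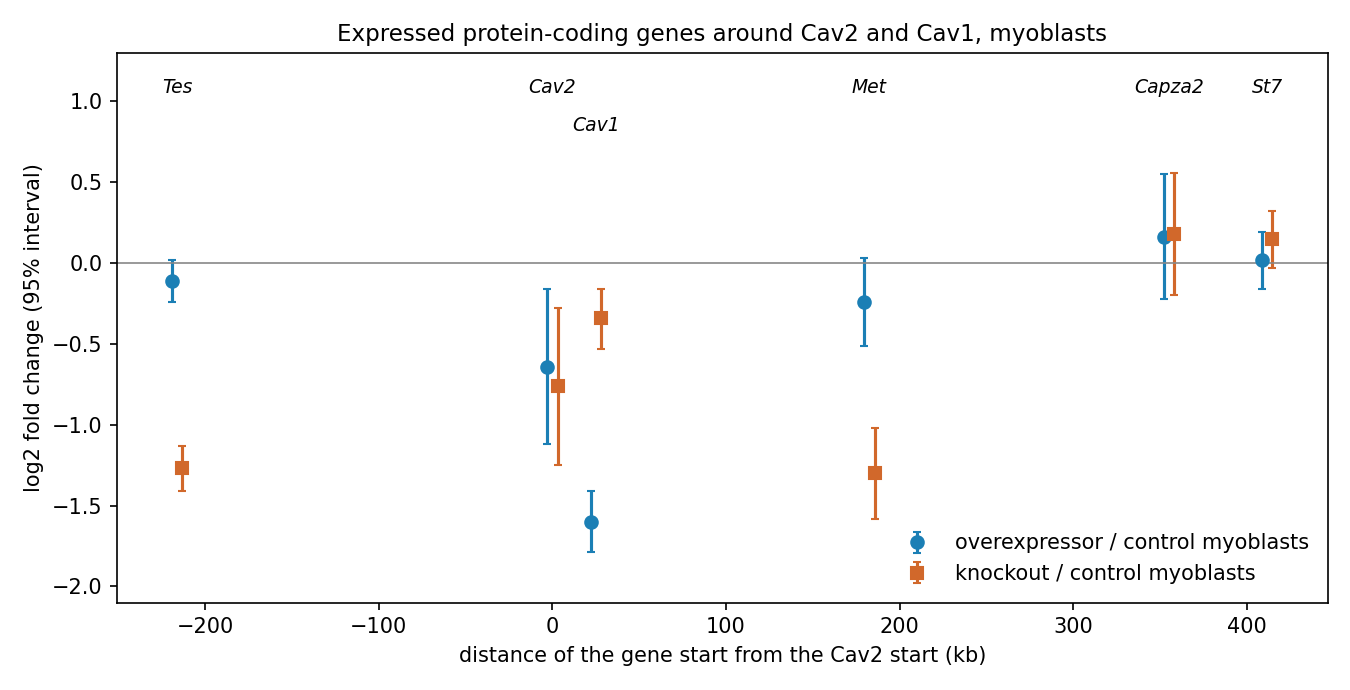
Log2 difference from control myoblasts (vertical axis, linear, with 95% intervals as bars) of the expressed protein-coding genes near Cav1 and Cav2, against the distance of each start from the Cav2 start in kb; circles are overexpressor and squares are knockout myoblasts, 3 libraries per group. Tes at -216 kb and Met at 182.6 kb lie at -1.27 and -1.30 in the knockout.

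By likeness of pattern, measured as the root mean square difference of centred log2 CPM over the 18 libraries among 10073 genes, the genes most like Cav1 were Abcb1b (0.37), a multidrug transporter gene, Mrgprf (0.40) and Osmr (0.44), the oncostatin M receptor. Abcb1b means were 24.6, 9.47 and 13.0 CPM in control, overexpressor and knockout myoblasts and 44.5, 3.81 and 3.64 CPM in the myotubes. For Cav2 they were Lox (0.35), the collagen cross-linking enzyme, Ereg (0.36), an EGF receptor ligand, and Pde3b (0.44). Lox means went from 1128 CPM in control myoblasts and 872 in control myotubes to 289 and 99.1 CPM in overexpressor and knockout myotubes. No gene was as close to Cav3, for which Pgm5 (0.88), Cox6a2 (1.09) and Myl4 (1.25) came nearest. The measure is not scaled by a gene's own range, which was widest for Cav3, so its distances cannot be compared between members. Pgm5, a phosphoglucomutase relative found at muscle adhesions, held 1.63, 0.188 and 57.6 CPM in control, overexpressor and knockout myoblasts and 188, 298 and 322 CPM in the myotubes.

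The partners of caveolae were read from 4 lists. Of 10 accessory and binding proteins, 5 were higher and 1 lower in overexpressor myoblasts (median log2 0.12) and 3 higher and 4 lower in knockout myoblasts (median -0.22). That is 6 of 10 called where 40.4% of all genes were, and 7 of 10 where 53.0% were. In the overexpressor these included Pacsin3 (log2 0.74, adjusted p 2.17e-06) and Pacsin2 (log2 0.67, adjusted p 4.3e-08), membrane-bending proteins. In the knockout Ehd3 (log2 -1.06, adjusted p 9.82e-10), Dnm1 (log2 -1.03, adjusted p 9.52e-09) and Flna (log2 -0.97, adjusted p 5.24e-08), the actin cross-linker that ties caveolae to stress fibres, were lower. The Flna value stands beside the raised myotube markers of those libraries. On differentiation 8 rose and 1 fell in control (median 0.70), 4 rose and 5 fell in the overexpressor (median -0.28) and 6 rose and 3 fell in the knockout (median 0.54), beside 62.8%, 62.8% and 65.4% of all genes called. Pacsin3, the muscle member of its family, rose in all lines (log2 1.66, 1.99 and 1.94 in control, overexpressor and knockout), and Flna fell in all (log2 -1.53, -1.38 and -1.16). In overexpressor against control myotubes 3 were higher (Pacsin1, Pacsin3 and Ehd4) and 5 lower, with 57.1% of all genes called. The largest differences were Ror1 at log2 -3.38 (adjusted p 5.98e-08), Pacsin1 at 2.09 (adjusted p 6.08e-08), Ehd3 at -1.82 (adjusted p 5.59e-13) and Dnm2 at -1.09 (adjusted p 2.89e-10).

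The flotillins Flot1 and Flot2 and stomatin (Stom), membrane proteins of rafts outside caveolae, were all higher in overexpressor myoblasts, at log2 0.48, 0.55 and 0.84 (adjusted p 0.000126, 6.23e-05 and 1.29e-07). Knockout myoblasts had Flot1 and Flot2 lower (log2 -0.57 and -0.35), and Stom did not pass (log2 0.01, adjusted p 0.967). In overexpressor myotubes all 3 were higher than in control, by 0.26 to 0.33 on the log2 scale. Over all genes, 20.7% were called higher in overexpressor myoblasts, 26.6% lower in knockout myoblasts and 26.2% higher in overexpressor myotubes, each against control.

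Of 7 muscle partners of caveolin-3, which hold T-tubule and membrane repair genes (Dysf, Trim72, Bin1, Jph2) along with Nos1, dystroglycan (Dag1) and a phosphofructokinase (Pfkm), 6 were higher and 1 lower in knockout myoblasts (median log2 0.71, with 53.0% of all genes called), led by Trim72, a membrane repair protein (132 against 2.92 CPM, log2 5.48, adjusted p 3.56e-11), Jph2 (log2 1.59, adjusted p 9.82e-12) and Bin1 (log2 1.15, adjusted p 4.79e-10). These values stand beside the raised myotube markers of those libraries. In overexpressor myoblasts 3 were higher and 4 lower (median -0.22, with 40.4% of all genes called), with Dysf, the repair protein dysferlin, at log2 -1.67 (adjusted p 7.1e-10) and Bin1 at 0.86 (adjusted p 3.21e-08). On differentiation 7 of 7 rose in control and in the knockout and 6 of 7 in the overexpressor, beside 33.9%, 29.8% and 29.8% of all genes called higher. The exception was Nos1, the neuronal nitric oxide synthase. In overexpressor against control myotubes 5 of the 7 were higher and 2 lower (median 0.76, with 57.1% of all genes called). Nos1 was among the lower, at 0.852 CPM in overexpressor and 28.0 CPM in control myotubes (log2 -5.03, adjusted p 4.02e-15).

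Of 8 signalling proteins found in caveolae, 2 were higher and 2 lower in overexpressor myoblasts and 2 higher and 5 lower in knockout myoblasts (median log2 -0.01 and -0.44). That is 4 of 8 called where 40.4% of all genes were, and 7 of 8 where 53.0% were. The kinase gene Fyn was higher in both (log2 1.82 and 1.90, adjusted p 1.01e-13 and 3.87e-14). Its relative Src was higher in the overexpressor (log2 0.53, adjusted p 6.14e-05) and lower in the knockout (log2 -1.93, adjusted p 3.46e-12). On differentiation 3 rose and 4 fell in control, and 2 rose and 4 fell in each clone (62.8%, 62.8% and 65.4% of all genes called in control, overexpressor and knockout), with Fyn rising in all 3 lines (log2 2.41, 1.24 and 1.16 in control, overexpressor and knockout). In overexpressor against control myotubes 2 were higher and 3 lower (57.1% of all genes called), Prkcd among the lower at log2 -1.24 (adjusted p 1.53e-10).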

How the data were processed

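PolyA RNA of 18 C2C12 libraries (6 groups of 3) was measured by sequencing. Raw read counts per gene were deposited by the authors. Per the submitters' processing notes the tools were STAR 2.7.9a, featureCounts, Subread 2.0.3, FastQC 0.11.7 and DESeq2 1.32.0 with build mm10; annotation release and strand setting are not given in the sources used here. Of 55450 gene IDs, 55190 matched GENCODE M21 (the rest held 0.00589% of counts).

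Counts were scaled by TMM in edgeR 4.0.16 (R 4.3.3), filtered by expression per group to 17912 genes, and fitted by the robust quasi-likelihood test over all 18 libraries (12 residual degrees of freedom), with Benjamini-Hochberg adjustment over all genes and a threshold of 0.05. SE is the log2 difference over the square root of F. The fit was tested on simulated data. Alternatives were DESeq2 1.42.0, other scalings, no filter, the compared groups alone, a replicate block, and each library left out. Members were always named; of the lists, at most 4 genes per comparison were eligible, those with the largest called change and a group mean of at least 5 CPM. The members and lists were chosen with earlier results of these data known.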

Additional observations from a re-analysis of the deposited data

Results flagged for a closer look

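The differentiation response (myotubes against myoblasts) of the overexpressor differed from that of control in 6 of the 7 members tested, by the interaction term of edgeR's quasi-likelihood fit over all genes (n = 3 libraries per group). The log2 difference of responses was -1.38 for Cav1 (adjusted p 4.94e-08), which rose in control and fell in the overexpressor, and -1.24 for Cavin2 (adjusted p 0.00085), with the same pair of directions. Cavin3 fell in both lines and further in the overexpressor (-1.17, adjusted p 9.04e-07), and Ehd2 fell in the overexpressor without passing the threshold in control (-1.23, adjusted p 9.1e-08). Cavin4 rose in both and further in the overexpressor (0.69, adjusted p 0.000129). For Cav3 the difference of 5.86 (adjusted p 0.000724) depends on the prior count, since overexpressor myoblasts held 0 counts. Of all genes tested, 39.0% were called in this comparison.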

How the results depend on the processing

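Every count of genes or members called stayed within 1.5 times its value under each alternative. Of the members' single values, 495 kept their side of the threshold (or, without a test, their value) under another setting, 16 lost a call, 2 gained 1, 3 turned direction and 11 moved, and with a library left out 1544 did so, 30 lost a call, 3 gained 1 and 7 turned direction. Those that turned had not passed the threshold in the report's fit. Each of the 18 libraries was left out for every comparison, including libraries outside the groups compared. Leaving out such a library can change only the scaling, the filter and the shared estimate of spread. The counts of values kept, and the 24 alternatives, therefore overstate how far a comparison's own libraries were probed. Of the values given without a test, counted as kept where they moved by less than 1 SD, 2 near 0 also crossed it: Cav2 in control differentiation (-0.34 to 0.014 over the alternatives) and Cavin4 in knockout against control myotubes (-0.043 to 0.14). The overexpressor minus control response of Cavin1 (log2 -0.059) became 0.055 with DESeq2's size factors, 0.055 with its Wald test and 0.13 with library totals, and ran from -0.098 to 0.12 with a library left out. With a library left out, Ehd2 in control differentiation ran from -0.12 to 0.014, Cavin4 in overexpressor against control myoblasts from -0.073 to 0.004, and Cav2 in overexpressor against knockout myoblasts from -0.044 to 0.23. In overexpressor myotubes, Cavin1 against control ran from -6.1e-05 to 0.21 and Ehd2 against knockout from -0.019 to 0.16. The cause was not tested.

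Library letters showed no pairing of the samples by the rule used: in 0 of 15 pairs of groups did every letter's correlation exceed 0.1 (range -0.36 to 0.26). The rule asks for every letter at once, with 3 libraries per group, so it cannot show that no libraries shared a batch. A replicate block gave 6803 genes in overexpressor against control myoblasts (7231 without) and 5 members in overexpressor against control myotubes (6 without), where Cavin2 was not called (log2 0.42, adjusted p 0.0715); Cavin1 between the clones' myotubes was not called either (log2 -0.17, adjusted p 0.0561). Depth limits Cav3 in control and overexpressor myoblasts, at 0 to 10 counts. With library totals the all-gene median went from -0.04 to 0.11 between overexpressor and control myotubes, and from -0.08 to -0.24 in knockout differentiation.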
